A study of Mus musculus with 5 samples.

Results

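RF8 is a mouse embryonic stem cell (ESC) line of 129sv origin, and it was compared here with 4 ESC lines of mixed C57BL6/129sv origin, #620-2, #620-6, #757-1 and #757-2. RF8 was labelled male and wild type and carried no modification. The line #620-2 was wild type and female, #620-6 was ECAT11 EGFP/EGFP and female, and #757-1 and #757-2 were ECAT11 EGFP/EGFP and male. RF8 was the parental line in which the ECAT11 knock-in allele was made, by replacing the coding region of ECAT11 with an EGFP and puromycin resistance cassette, and the other 4 were derived from blastocysts of heterozygous parents. All lines were grown with leukemia inhibitory factor and serum on gelatin, without feeder cells, and each was measured on 1 one-colour Agilent array. RF8 made up 1 of the 5 samples of the series. Of the 41174 probes of the array, 25173 were kept, those placed on chromosomes 1 to 19 and well above background in RF8 or in all 4 other lines. RF8 had no replicate, so each value was judged by its distance outside the range of the other 4 lines, and a probe was called where that distance was more than 2-fold. Strain, sex label, genotype, derivation and time in culture vary together between RF8 and some of the other lines, and with 1 array of RF8 they cannot be told apart.

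ESCs of 129sv mice were widely used for early gene targeting, and 129sv and C57BL/6 mice differ at many genes, among them genes of innate immunity and clusters of zinc finger genes. ESC lines also differ from each other without any difference in strain, because imprinted genes lose or gain expression in culture, because cells move between a naive state and a state closer to the epiblast of the implanted embryo, and because whole chromosomes are gained. In an expression array such variation appears as a group of genes that stands apart in a line.

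The arrays lay on 2 slides, RF8 with #620-2 and #620-6 on the first and #757-1 with #757-2 on the second. The number of probes well above background was 26479 in RF8, 26362 and 27135 in #620-2 and #620-6, but 22044 and 21242 in #757-1 and #757-2. All values below are log2 signals relative to the 75th percentile of the array, so that 0 is the level of that percentile. The lowest signal well above background was between -6.22 and -5.90 on the first slide and -4.49 and -4.22 on the second. Probes with 10 spots had a median spot-to-spot SD of 0.056 to 0.075. All 10 ESC markers were well above background in every line. Their summed level in RF8, 476, lay within that of the other lines (473 to 667, in multiples of the 75th percentile). The sum is weighted to the brightest markers, in RF8 Dppa5a and Zfp42. On the log2 scale RF8 lay below the range for Nanog (-0.91), Esrrb (-0.78), Klf4 (-0.62), Sox2 (-0.37) and Dppa5a (-0.27). Zfp42 lay 0.20 above it, and Pou5f1, Tdgf1, Utf1 and Sall4 lay within it.

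RF8 was more than 2-fold above all 4 mixed-background lines for 413 probes (1.64% of those kept) and more than 2-fold below all 4 for 175 (0.695%). The distance was over 4-fold for 89 of the former and 42 of the latter. Of the higher probes, 317 were not well above background in at least 1 of the other lines, which includes 173 that were so in none of them. Among the 19655 probes that were measured above background in all 5 lines, RF8 was higher for 96 (0.488%) and lower for 141 (0.717%). Against the lines of its own slide alone, whose range cannot be wider than that of all 4, 1228 probes were higher and 782 lower. The median difference between RF8 and the mean of the 4 lines over all kept probes was 0.062, and the median SD among the 4 lines was 0.26. At the threshold, Cd59a lay 1.00 above the nearest line and was called higher, whereas Mat2b, 0.999 above it, was not. On the lower side Rab27a was the last called, and H4c9, at -0.997, was not called. With limma, which has to assume that RF8 varies as the other lines do, 0 probes were higher and 1 was lower at an adjusted p under 0.05 and 2-fold, with 1870 probes at an unadjusted p under 0.05. With the slide as a block limma called 66 higher and 38 lower.

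Of the probes measured in all 5 lines, the largest distance belonged to a transcript known only by its cluster name, TC1444249, which was picked out for its size. Its probe lies on chromosome 6 and closely resembles the coding sequence of Rpl29, which encodes a protein of the large ribosomal subunit. Of 58 aligned bases, 51 are shared with an Rpl29 probe and 7 differ, and both 60-base probes are printed to show this, with the differing bases in capitals. The first is at chr6:39121712-39121771 on the minus strand and the second at chr9:106159761-106159820 on the plus strand, in mm7, the genome build of the probe positions.
TC1444249: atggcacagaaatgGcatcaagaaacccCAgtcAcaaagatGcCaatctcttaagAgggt
Rpl29: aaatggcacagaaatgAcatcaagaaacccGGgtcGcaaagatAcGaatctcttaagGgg
The TC1444249 probe had a signal of -2.58 in RF8, 4.12 in #620-2, 4.39 in #620-6, 4.45 in #757-1 and 4.52 in #757-2. The 4 mixed-background lines were nearly alike, and RF8 was 104-fold below the lowest of them. The Rpl29 probe itself was at 5.03 in RF8 and between 5.21 and 5.40 in the others, and 3 further Rpl29 probes had RF8 inside the range.

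Among named genes measured in all 5 lines, Nod1 had the largest distance below the others. Nod1, a cytosolic receptor for fragments of bacterial cell walls whose probe lies on chromosome 6, was at -1.05 in RF8, against 3.20 in #620-2, 3.56 in #620-6, 3.38 in #757-1 and 3.41 in #757-2. RF8 was thus 19.1-fold below the nearest line, where the 4 lines together had a mean of 3.39 ± 0.15 (SD, n = 4). Galnt6, an enzyme that starts mucin-type O-glycosylation, was lower with both of its probes. The brighter of them was at -1.93 in RF8 and at 1.78, 1.82, 1.11 and 1.12 in #620-2, #620-6, #757-1 and #757-2, and the other was 6.32-fold below the nearest line. The 2 overlapping probes of Rpgrip1, a protein of the photoreceptor cilium, were 4.84-fold and 4.83-fold lower. Pmaip1, a p53 target that promotes cell death and is also called Noxa, was at 1.18 in RF8, 3.38 in #620-2, 3.81 in #620-6, 3.95 in #757-1 and 3.80 in #757-2. It was the only member called among the 31 kept probes of 20 p53 targets, 3.23% against 2.34% of all kept probes. The median difference of that list was -0.11. Crisp1, a secreted protein of the epididymis, Serpina3m, a protease inhibitor, Rhcg, an ammonia transporter, Sh3tc2, a protein of Schwann cells, and Tmprss12, a membrane serine protease, were between 5.03-fold and 5.69-fold below the nearest line. With normexp, Tmprss12 was short of 2-fold, at -0.92 on the log2 scale.

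Other probes were below background in RF8 and measured in all 4 other lines, so their folds are lower bounds. Each bound sets the mean of the 4 lines against the higher of the RF8 signal and the lowest RF8 signal well above background. Reg2, a secreted protein of the regenerating family, was not well above background in RF8 and was at 0.68 in #620-2, 0.72 in #620-6, -0.82 in #757-1 and -1.04 in #757-2. It was at least 58.8-fold lower in RF8. Zfp874a, a KRAB zinc finger protein, was at -1.17, -1.36, -0.40 and -0.45 in the same order and at least 35.5-fold lower. Nnmt, which methylates nicotinamide, was at least 17.1-fold lower, Speer4f1, a gene of the testis, at least 12.2-fold, and Gsdme, a gasdermin that forms pores in dying cells, at least 11.5-fold with 1 of 3 probes. That Gsdme probe is placed on the plus strand and named through a synonym, while the other 2, on the minus strand, were within the range. The largest bound, at least 89.2-fold, belonged to a probe of the receptor phosphatase Ptprg, at -1.08, 0.29, 1.08 and 1.64 in the 4 lines. A second Ptprg probe was at -0.97 in RF8, within the range of the others (-1.68 to -0.54).

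In the other direction, Nts, the precursor of the peptide neurotensin, was at -0.88 in RF8, against -4.75 in #620-2, -5.00 in #620-6, -3.71 in #757-1 and -3.67 in #757-2. RF8 was 6.92-fold above the highest of these. Sfrp4, a secreted Wnt antagonist, was at 0.73 in RF8 and between -1.94 and -1.30 in the others. RF8 was 4.17-fold above the nearest line for 1 probe of the cardiac myosin Myh6, whose second probe lay 0.81 above it on the log2 scale and was not called. It was 3.93-fold above for the skeletal actin Acta1 and 3.74-fold for the myosin chaperone Unc45b. The olfactory receptor Olfr570 was 4.19-fold, the endothelin Edn2 3.66-fold and the histone H2bu2 3.59-fold above it. Acta1 lies on chromosome 8 and H2bu2 on chromosome 11, and the probes of both chromosomes as a whole were higher in RF8. Where a gene was measured in RF8 and in none of the other lines, the bound was largest for Cntn5, a neuronal adhesion molecule, at -1.40 in RF8 and at least 14-fold higher, with the RF8 signal set against the mean of the lowest measurable signals of the other lines. It was at least 10.8-fold for the olfactory receptor Olfr318, at least 10.3-fold for the immunoglobulin segment Igkv3-12, at least 8.03-fold for Dao, which oxidises D-amino acids, and at least 7.94-fold for Tex47. For Jam3, a junctional adhesion molecule, 1 probe gave a bound of 6.84-fold while the other was at 1.95 in RF8 and between 1.70 and 1.97 in the other lines.

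**Figure D1:**
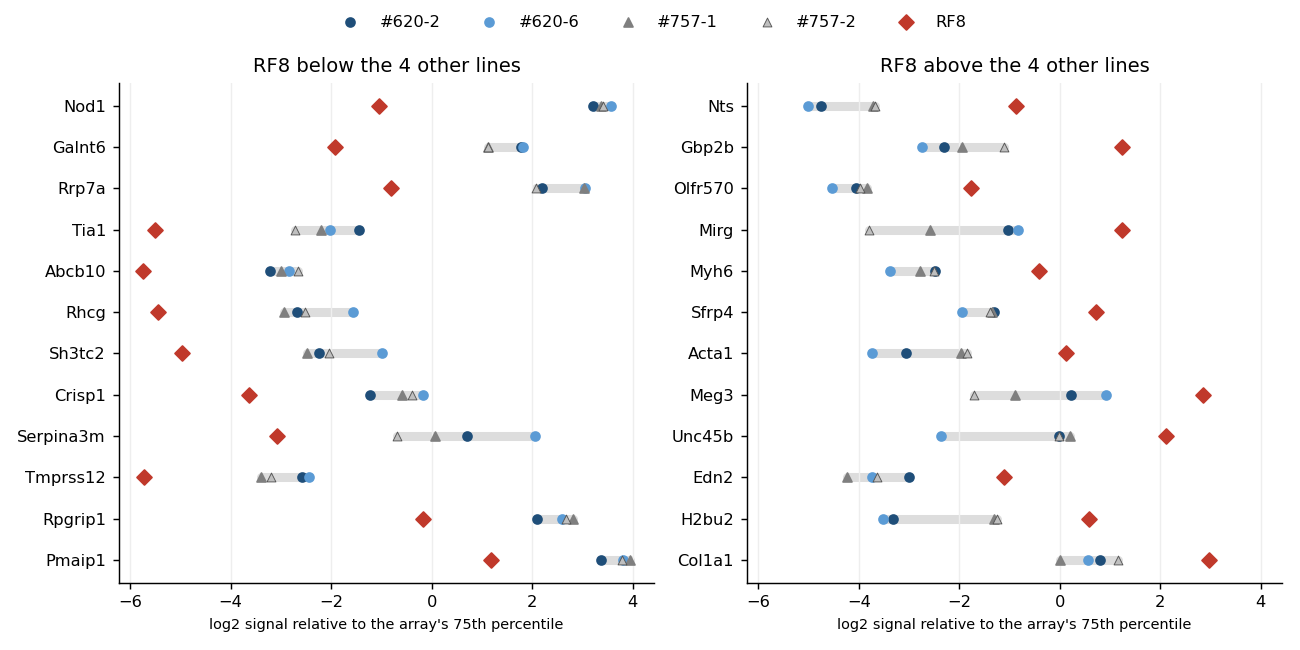
Log2 signal relative to the 75th percentile of the array (x axis) of the 12 genes with the largest distance in each direction among named probes measured in all 5 lines. Each point is 1 line, the grey bar spans the 4 mixed-background lines, and RF8 (red diamond) lies outside that bar by between 2.20 (Pmaip1) and 4.26 (Nod1) in the left panel and between 1.82 (Col1a1) and 2.79 (Nts) in the right panel.

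A second probe of the same gene often differed from the first. Of the 5801 genes with 2 or more kept probes, 187 had at least 1 probe called. All probes were higher for 19 of them and all were lower for 11, and in 69 the probes that were not called lay outside the range on the same side. In 88 genes another probe was inside the range or on the other side, and 0 genes had probes called in opposite directions. Tia1, an RNA-binding protein of stress granules, is of the mixed kind. Its called probe was at -5.51 in RF8 and between -2.71 and -1.44 in the others, but its other 3 probes lay 0.03 to 0.22 above the highest of the other lines. Rrp7a, which acts in processing of ribosomal RNA, had 1 probe 7.48-fold lower and 1 inside the range. For Abcb10, a mitochondrial transporter, 1 probe was 5.74-fold below the nearest line and the other only 0.59 below it on the log2 scale, and the former was short of 2-fold with normexp (-0.94). Acin1, a component of the exon junction complex, had 2 probes lower, at 2.33-fold and 2.09-fold, and 2 at the level of the other lines. The uncharacterised genes 2810429I04Rik and 1700001C19Rik also had 2 probes called, the former lower at 4.36-fold and 3.22-fold with its remaining probe inside the range, the latter higher, at -3.31 and -4.15 in RF8, with 2 of the other lines well above background. With normexp 1700001C19Rik was short of 2-fold, at 0.68 on the log2 scale.

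Of imprinted genes only the copy from 1 parent is active. As with all gene lists here, this list was chosen with earlier results of these data known, so its shares are a description only. Of 67 kept probes of 37 imprinted genes, 13 were higher in RF8, in 7 genes, and 3 were lower, in 2 genes. Of all kept probes 1.64% were higher and 0.695% lower. Of the 13, 6 were kept only through RF8, and among the 52 probes measured in all 5 lines 7 were higher and 3 lower. By any distance 34 lay above the range and 10 below it, against 28.6% and 17.8% of all kept probes. The list median was 0.34, against 0.062 over all probes. Of the 13 higher probes, 8 belong to the Dlk1-Dio3 cluster on chromosome 12. The cluster holds the noncoding RNAs Meg3, Rian and Mirg, active on the maternal copy, and the protein-coding genes Dlk1 and Dio3, active on the paternal copy, and silencing of the maternal RNAs is a known variation between pluripotent lines. The probes that measured the brightest stretch of each RNA are printed as the array holds them, on the plus strand in mm7, for Meg3 at chr12:107092697-107092756, for Rian at chr12:107180614-107180673 and for Mirg at chr12:107261346-107261405, all in lower case as no part of them is singled out.
Meg3: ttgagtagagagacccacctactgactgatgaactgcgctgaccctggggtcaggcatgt
Rian: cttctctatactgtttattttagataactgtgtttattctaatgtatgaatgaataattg
Mirg: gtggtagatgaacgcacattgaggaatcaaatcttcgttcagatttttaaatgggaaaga
With these probes Meg3 was at 4.61 in RF8, 2.05 in #620-2, 2.82 in #620-6, 0.97 in #757-1 and 0.23 in #757-2. Rian was at 0.01 in RF8, -2.65 and -1.82 in #620-2 and #620-6 and -3.96 and -4.88 in #757-1 and #757-2. Mirg was at 1.24 in RF8, -1.04 and -0.83 in #620-2 and #620-6 and -2.58 and -3.79 in #757-1 and #757-2. RF8 was the highest line with all 8 probes, by 3.16-fold to 4.62-fold over the next line. With each of the 3 printed probes #620-2 and #620-6 lay above #757-1 and #757-2. Some of the other lines were not well above background with 4 of the 8 probes.

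The protein-coding genes of the cluster did not follow the RNAs. Dlk1, a membrane protein related to Notch ligands, was at 0.93 in RF8 with its brighter probe, between #620-2 and #620-6 (2.54 and 2.62) and #757-1 and #757-2 (-0.68 and -0.82). Dio3, which inactivates thyroid hormone, was at -1.89 in RF8, -0.15 in #620-2, -0.01 in #620-6, -0.75 in #757-1 and -0.88 in #757-2, 2.01-fold below the nearest line. Outside the cluster, both probes of Igf2, a growth factor, were higher, the brighter at 2.39 in RF8 and between 0.36 and 0.98 in the others. H19 lay below the range with both probes, at distances of -0.55 and -0.69 on the log2 scale, short of the threshold. Both probes of Peg3, a zinc finger protein, were lower, the brighter at -1.35 in RF8 and between 0.50 and 1.55 in the others. Nnat, a small membrane protein of neural tissue, was 2.03-fold above the nearest line, and 1 probe of Slc22a18, a transporter, was 2.32-fold above it, with 2 of the other lines well above background. The noncoding RNA Airn was called with 1 probe, at -4.37 in RF8, which is under the lowest measurable signal of #757-2 (-4.22), and 1 of the other lines was measured, so no fold is given. With normexp background correction, which raises dim signals by an offset, Dio3 (-0.82), Nnat (0.99), Slc22a18 (0.70) and Airn (0.35) fell short of 2-fold, as distances on the log2 scale.

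**Figure D2:**
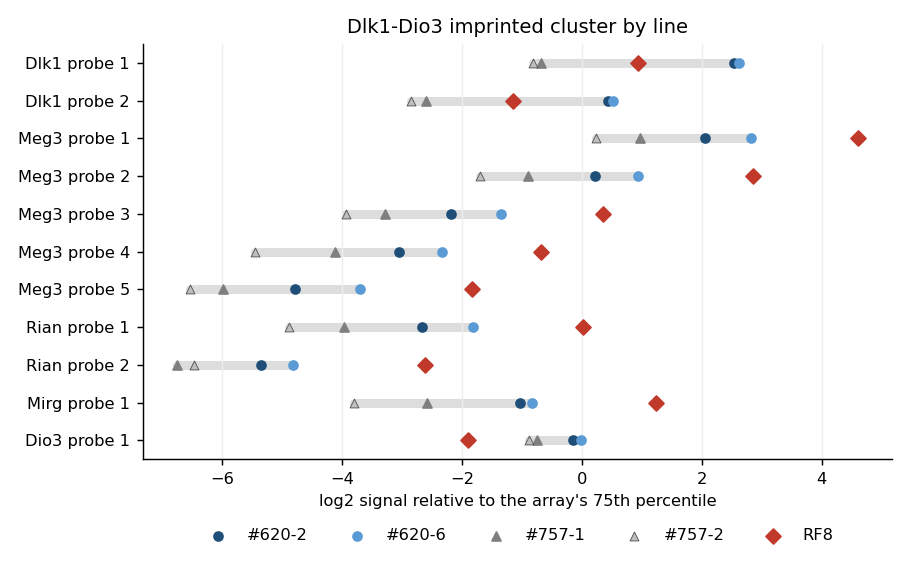
Log2 signal relative to the 75th percentile of the array (x axis) for each kept probe of 5 genes of the Dlk1-Dio3 imprinted cluster, with 1 point per line and a grey bar over the range of the 4 mixed-background lines. RF8 (red diamond) lies right of the bar for all probes of Meg3, Rian and Mirg, within it for both Dlk1 probes and left of it for Dio3.

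Several interferon-responsive genes were higher in RF8. Interferons induce antiviral proteins and the machinery that presents peptides on class I molecules, a response that ESCs are known to mount only weakly. Of 34 kept probes of 22 interferon-responsive genes, 8 were higher by more than 2-fold, in 7 genes, and 0 were lower, where 1.64% of all kept probes were higher. Of these 8, 3 were kept only through RF8, the line in which they were high, and among the 26 probes measured in all 5 lines 5 were higher, against 0.488% of all such probes. By any distance 17 of the 34 lay above the range and 5 below it, against 28.6% and 17.8% of all kept probes. The list median was 0.45. This list too was chosen with earlier results of these data known. Isg15, a ubiquitin-like protein, was at -0.08 in RF8, -3.59 in #620-2, -3.41 in #620-6, -2.60 in #757-1 and -1.86 in #757-2, and its probe is the only one of the gene, which the array file places on chromosome 17 although the gene lies on chromosome 4 in RefSeq. Gbp2, an interferon-induced GTPase, was at 2.36 in RF8, -1.03 in #620-2, -1.41 in #620-6, 0.15 in #757-1 and 1.11 in #757-2. Both probes of Irgm1, a GTPase that acts in autophagy of microbes, were called, the brighter at 1.63 in RF8 and at -0.79, -0.54, 0.19 and 0.45 in the others. Irgm1 lies on chromosome 11, whose probes as a whole were higher in RF8. In these 3 genes #620-2 and #620-6 were lowest, #757-1 was next and #757-2 was nearest to RF8. Gbp3 was 2.74-fold above the nearest line. Ifit1 and Ifit2, which bind viral RNA, and Ifih1, a sensor of it, were dim. Ifit1 was at -3.94 in RF8 and well above background in 1 of the other lines, and as its nearest line was not measured, no fold is given. Ifit2 was 2.08-fold above the nearest line, with 3 of the others measured, and Ifih1, measured in RF8 only, was at least 2.17-fold higher. With normexp, Ifit1 (0.40), Ifit2 (0.51) and Ifih1 (0.21) fell short of 2-fold, as distances on the log2 scale, and Ifih1 did so with quantile normalization too.

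Genes of antigen presentation were called only on the higher side. Of 32 kept probes of 18 genes, 5 were more than 2-fold higher, in 4 genes, and 0 were lower, where 1.64% and 0.695% of all kept probes were so. By any distance 21 lay above the range and 0 below it, against 28.6% and 17.8% of all kept probes, and the list median was 0.62. Psmb8, a catalytic subunit of the immunoproteasome, was at 2.19 in RF8, -1.08 in #620-2, -2.14 in #620-6, 0.24 in #757-1 and 1.01 in #757-2 with its brighter probe, and its second probe was called as well. Psmb10, a further catalytic subunit, was at 5.82 in RF8 and between 3.49 and 4.81 in the others. It lies on chromosome 8, whose probes as a whole were higher in RF8. Tap2, a part of the peptide transporter, was at -2.50 in RF8 and between -4.39 and -3.57 in the others. B2m, the light chain of class I molecules, had 1 dim probe called at 2.04-fold while its brightest was at 1.81 in RF8, within the range of 1.02 to 1.89. With normexp, Tap2 (0.53) and B2m (0.46) were short of 2-fold on the log2 scale, and B2m was so with quantile normalization too.

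**Figure D3:**
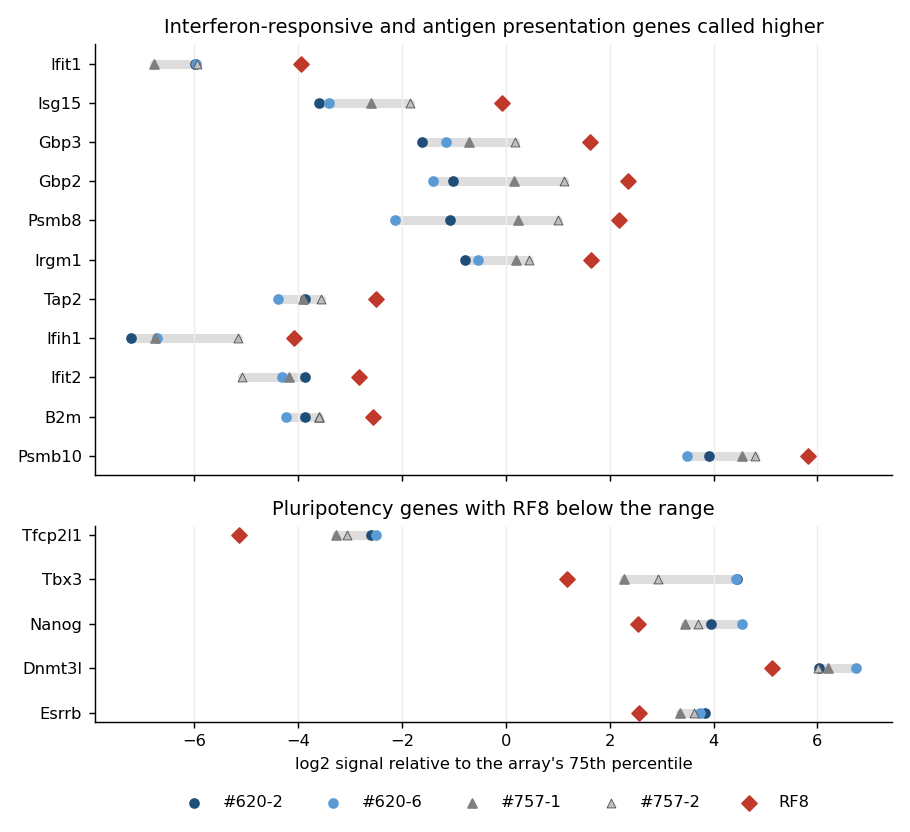
Log2 signal relative to the 75th percentile of the array (x axis) of the called interferon-responsive and antigen presentation genes (upper panel) and of 5 pluripotency genes below the range (lower panel), with the probe of largest distance per gene. Each point is 1 line and the grey bar spans the 4 mixed-background lines. RF8 (red diamond) lies right of the bar in the upper panel, from 1.01 (Psmb10) to 1.77 (Isg15) away and further for Ifit1, whose nearest line was not well above background, and left of it in the lower panel, from 0.78 (Esrrb) to 1.87 (Tfcp2l1) away.

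The promoters of these genes were searched for the core of the interferon-stimulated response element, which is GAAA, any 2 bases and GAAA again, on either strand, in the 250 bases before the gene start in the RefSeq promoter table (GRCm38.p6). The motif was present in 6 of the 10 called genes of both lists that have a promoter there, in 7 of 23 kept members that were not called and in 2.98% of all promoters in the table. The last share is per promoter (978 of 32851, of 27025 genes), while a list gene counted where any of its promoters held the motif. The 250 bases of 3 of the 6 are printed to show its place and repeats, with the motif in capitals, for Gbp2 at chr3:142620413-142620662 on the plus strand, for Irgm1 at chr11:48871421-48871670 and for Isg15 at chr4:156200819-156201068, both on the minus strand.
Gbp2: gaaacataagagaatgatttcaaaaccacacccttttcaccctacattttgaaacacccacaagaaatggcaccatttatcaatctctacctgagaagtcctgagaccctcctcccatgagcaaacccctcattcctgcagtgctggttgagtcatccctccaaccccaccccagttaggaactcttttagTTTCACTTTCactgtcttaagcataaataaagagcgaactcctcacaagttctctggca
Irgm1: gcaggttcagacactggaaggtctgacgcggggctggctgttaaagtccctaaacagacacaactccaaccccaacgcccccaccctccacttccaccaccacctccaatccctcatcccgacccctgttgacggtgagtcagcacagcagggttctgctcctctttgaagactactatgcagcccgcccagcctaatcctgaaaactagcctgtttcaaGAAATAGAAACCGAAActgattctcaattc
Isg15: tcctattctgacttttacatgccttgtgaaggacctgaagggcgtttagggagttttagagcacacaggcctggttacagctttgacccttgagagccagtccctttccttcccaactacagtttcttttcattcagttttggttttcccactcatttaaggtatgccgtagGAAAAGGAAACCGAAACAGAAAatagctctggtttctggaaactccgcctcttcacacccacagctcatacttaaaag
Gbp2 holds the motif once, on the opposite strand, whereas Irgm1 holds 2 overlapping matches and Isg15 holds 3. These sequences are those of the reference strain, and the match is a description of the letters.

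Gbp2b, another interferon-induced GTPase, was on a list of 10 genes known for allele differences between 129sv and C57BL/6 mice. It had the only probe called among the 14 kept of that list, in 9 genes (7.14%, against 2.34% of all kept probes). Gbp2b was at 1.24 in RF8, -2.30 in #620-2, -2.73 in #620-6, -1.95 in #757-1 and -1.10 in #757-2, 5.09-fold above the nearest line. Casp4, an inflammatory caspase of which 129sv mice are known to carry a defective copy, was at -5.62 in RF8, -2.08 in #620-2 and -1.76 in #620-6, and was not well above background in #757-1 and #757-2. RF8 was thus below #620-2 and #620-6, and its order against #757-1 and #757-2 cannot be read. Ifi202b, a DNA-binding interferon-inducible protein, was at -1.44 in RF8, 0.44 and 0.69 in #620-2 and #620-6 and -3.17 in #757-2. It was not well above background in #757-1. RF8 thus lay below #620-2 and #620-6 and above #757-2. Nnt, which is defective in C57BL/6J mice, was within the range or at most 0.39 outside it with its 4 probes.

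The pluripotency list leaned the other way. Of 39 kept probes of 28 genes, 0 were higher and 4 were lower by more than 2-fold, where 0.695% of all kept probes were lower. A further 13 lay below the range by less, and 5 lay above it. By any distance 17 of the 39 thus lay below, against 17.8% of all kept probes below and 28.6% above. The list median was -0.33. All 3 probes of Tfcp2l1, a transcription factor of naive ESCs, were lower. Its brightest probe was at 0.99 in RF8, 2.76 in #620-2, 2.99 in #620-6, 2.61 in #757-1 and 2.91 in #757-2, 3.08-fold below the nearest line. The dimmest, at -5.15 in RF8, was short of 2-fold with normexp (-0.81 on the log2 scale). Tbx3, a T-box factor that sustains self-renewal, was at 1.18 in RF8, 4.45 in #620-2, 4.43 in #620-6, 2.27 in #757-1 and 2.94 in #757-2. Nanog, a core factor of the naive network, was at 2.54 in RF8 and between 3.44 and 4.54 in the others, which is 0.91 below the range and short of the threshold. Dnmt3l, a cofactor of DNA methylation, was 0.89 below it and Esrrb, an orphan nuclear receptor, 0.78 with its brighter probe. Pou5f1, by contrast, was at 2.57 in RF8 and between 2.55 and 3.05 in the others. Zfp42, a marker of naive cells, lay 0.20 above the highest of the other lines in RF8, and #620-6 and #757-2 were low, at 4.01 and 3.87. Zfp42 lies on chromosome 8, whose probes as a whole were higher in RF8.

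Among 20 kept probes of 18 genes of early differentiation, 1 was called (5%), where 2.34% of all kept probes were called. Otx2, a homeobox factor of the epiblast and forebrain, was at 1.99 in RF8, -0.11 in #620-2, -0.53 in #620-6, 0.77 in #757-1 and 0.92 in #757-2. By any distance 9 of the 20 lay above the range, 2 below it and 9 inside it. Of all kept probes 28.6% lay above and 17.8% below. The list median was 0.44. Nes, an intermediate filament of neural progenitors, was at 2.12 in RF8 and at most 1.42 in the others, and Pax6, a homeobox factor of the neural lineage, was at -0.02 and at most -0.38. Neither was more than 2-fold outside the range. Gsc lay below it (-0.80 on the log2 scale), and Fgf5 and Sox1 lay within it. The list of primitive endoderm genes had a median of -0.076, with 1 of 20 kept probes called (5%, against the same 2.34%). Sox7, a factor of that lineage, was at -5.35 in RF8, -1.82 in #620-2, -1.11 in #620-6, -3.23 in #757-1 and -2.77 in #757-2, and with normexp was just short of 2-fold (-0.99).

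Of 27 kept probes of 19 fibroblast genes, 4 were higher, in Col1a1 and Acta2, and 0 were lower, against 1.64% and 0.695% of all kept probes. Of the 4, 1 was kept only through RF8. By any distance 12 of the 27 lay above the range, 3 below it and 12 inside it, against 28.6% above and 17.8% below of all kept probes. The list median was 0.16, and it was 0.14 against the lines of the own slide and 0.82 against those of the other slide. Col1a1, a chain of type I collagen, was at 2.98 in RF8, 0.80 in #620-2, 0.56 in #620-6, 0.00 in #757-1 and 1.15 in #757-2 with its brightest probe, and lies on chromosome 11. Acta2, smooth muscle actin, had 2 probes called at 2.35-fold and 2.18-fold, and its brightest, at 3.11 in RF8, was within the range of 2.97 to 3.14. With normexp the largest Acta2 distance was 0.84, short of 2-fold. The summed level of 10 fibroblast markers was 24.4 in RF8 and 11.4 to 17.7 in the others, in multiples of the 75th percentile. The brightest in RF8 were Acta2, within the range, Col1a1, and Col1a2, 0.89 above it on the log2 scale. Col3a1 and Thy1 lay within the range, in RF8 below #620-2 and #620-6 and above #757-1 and #757-2. Pdgfrb lay 0.46 and Postn 0.06 above the range, and Twist1 just below it (-0.01). Of these markers 9 were well above background in RF8 and 8 to 10 in each of the others. Lum, a proteoglycan of connective tissue, was not well above background in RF8, and Dcn, another, was at -3.30, below all other lines. The part of fibroblasts in these values was not tested, and in bulk RNA fewer cells of a type and less RNA per cell cannot be told apart.

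None of the kept probes of the other lists was called, which were 5 of 2-cell state genes, 20 of germline genes and 48 of glutathione and redox genes. Of all kept probes 2.34% were called, a share at which lists of this size hold few or no called probes. The medians of these lists were -0.23, -0.38 and 0.023.

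**Figure D4:**
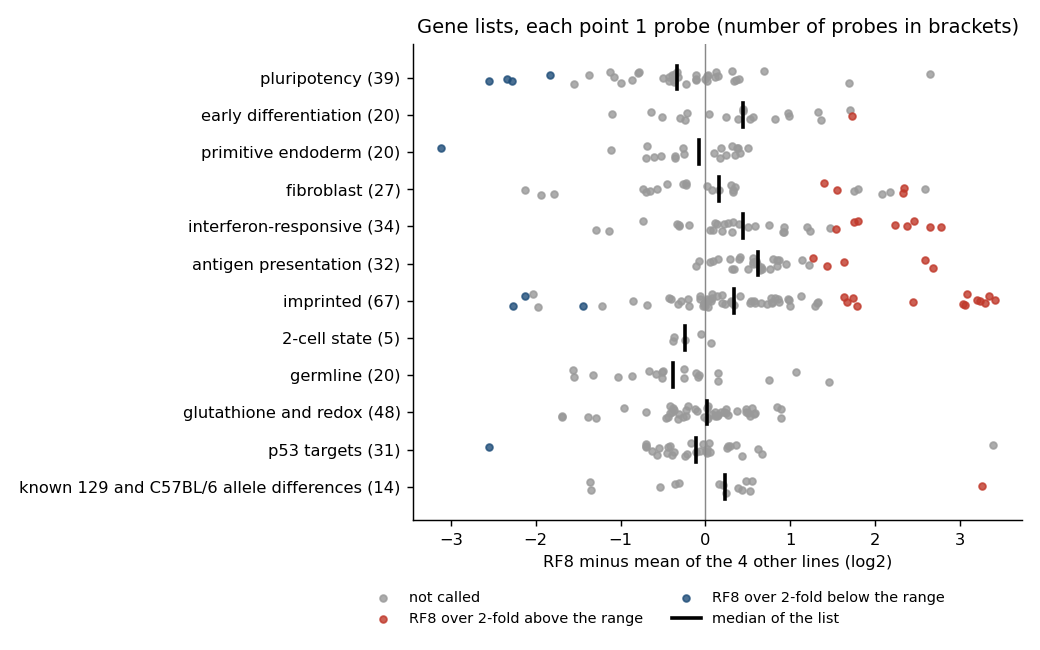
Difference of RF8 from the mean of the 4 mixed-background lines (x axis, log2) for each kept probe of 12 gene lists, with the number of probes in brackets and the list median as a black bar. Red and blue points are more than 2-fold above and below the range of the 4 lines, grey points are not. The highest median is that of antigen presentation (0.62), and the called probes are all red in the interferon-responsive and antigen presentation lists and all blue in the pluripotency list.

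Called probes were not spread evenly over the genome. By chromosome the share in either direction ran from 1.55% of kept probes on chromosome 4 to 4.38% on chromosome 14, against 2.34% overall. In 244 windows of 10 Mb with at least 20 kept probes the median share was 2.09%, and 43 windows held 0 called probes. The 3 windows with the highest shares were chromosome 14 from 0 to 10 Mb (7 of 36 probes, 19.4%), chromosome 12 from 40 to 50 Mb (4 of 36, 11.1%) and chromosome 13 from 60 to 70 Mb (11 of 102, 10.8%). At a width of 5 Mb the start of chromosome 14 was at 31.6% but held 19 probes, under the minimum of 20, and the first of the windows past that minimum was on chromosome 3, at 17.9%. At 20 Mb it was on chromosome 7, at 8%, and the start of chromosome 14 was at 7.09%.

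In the first of these windows 6 probes were higher and 1 was lower. The higher ones include 3 probes of Gm10413 and 1 of 2610042L04Rik, members of a repeated gene family whose probes can take up each other's transcripts, so they count as less than separate genes. Gm10413 was at -0.01 in RF8 and between -2.46 and -1.04 in the others with its brightest probe. Rpp14, a subunit of ribonuclease P, was the lower gene, at -0.17 in RF8 and between 0.91 and 1.98 in the others. In the window on chromosome 12, both probes of Coch, an extracellular protein of the inner ear, were higher, at 2.85-fold and 2.71-fold, and 2 probes without a gene name were lower.

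The window on chromosome 13 held 9 lower and 2 higher probes, and a cluster of KRAB zinc finger genes, which repress transposable elements, lies in it. Besides Zfp874a, the genes Zfp748, Zfp429, Zfp459 and Zfp273 had a probe called lower there. Zfp748 was at least 5.06-fold lower with 1 probe, while its other 2 probes lay within the range. Zfp429 was at -1.47 in RF8, -0.36 and -0.43 in #620-2 and #620-6 and 0.03 and 0.05 in #757-1 and #757-2. Zfp459 was 1.02 below the nearest line on the log2 scale, and Zfp273 was 1.04 below it with 1 probe and 0.25 to 0.27 below it with 2 others. Nlrp4f, a gene of the oocyte, was at -1.57 in RF8, 0.29 in #620-2, 2.58 in #620-6, 2.53 in #757-1 and 2.56 in #757-2. Srd5a1, which reduces testosterone, was at least 4.29-fold lower with 1 probe and within the range with the other. The naming of Zfp429, Zfp459 and Zfp273 followed from their values. With normexp the shares of the 3 windows were 2.78%, 2.78% and 1.96%. The share over all probes fell as well, as 102 of the 25173 kept probes were then higher and 83 lower. With that correction Zfp748 (-0.77), Srd5a1 (-0.55), Rpp14 (-0.999) and Gm10413 (0.96) were short of 2-fold as distances on the log2 scale.

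Whole chromosomes also differed. The median difference of RF8 from the mean of the 4 lines was 0.34 over the 1375 kept probes of chromosome 8 and 0.23 over the 2171 of chromosome 11, and between -0.0055 and 0.090 on each of the other 17 autosomes. On chromosome 8 the median of RF8 minus the single line was 0.44 for #620-2, 0.53 for #620-6, 0.10 for #757-1 and 0.28 for #757-2. On chromosome 11 it was 0.42, 0.16, 0.30 and 0.059 in the same order. RF8 was therefore above each line on both chromosomes, with #757-1 nearest on the former and #757-2 nearest on the latter. The median was above 0 in all 13 windows of 10 Mb along each, from 0.25 to 0.72 on chromosome 8 and from 0.13 to 0.43 on chromosome 11. RF8 lay above all 4 lines by any distance for 49.5% of kept probes of chromosome 8 and 42.3% of chromosome 11, against 25.9% elsewhere. Gains of chromosomes 8 and 11 are known in cultured mouse ESCs, but the number of chromosomes was not measured, and its part in these values was not tested. The shift is below the 2-fold threshold, and 2.62% of probes were called higher on chromosome 8 and 1.57% on chromosome 11, against 1.59% elsewhere.

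**Figure D5:**
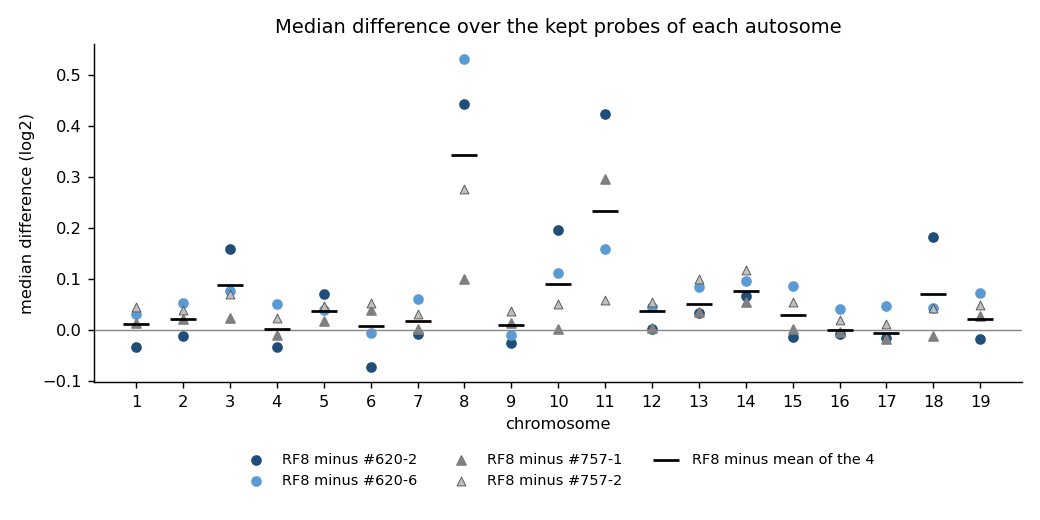
Median difference (y axis, log2) between RF8 and each mixed-background line, and between RF8 and the mean of the 4 (black bars), over the kept probes of each autosome (x axis). Chromosomes 8 (0.34) and 11 (0.23) stand above the other 17, whose bars lie between -0.0055 and 0.090.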

How the data were processed

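Total RNA of 5 ESC lines was hybridised to 5 one-colour Agilent arrays. The authors extracted the scans with Feature Extraction 9.5.3.1 and deposited, per the file headers, mean, local background and background-corrected intensity values of 45018 spots, not normalized between arrays. They also deposited a table of log2 values, whose differences between lines matched those computed here (slope 0.99976, Pearson r 0.999938 over 20617 probes). The study's methods give GeneSpringGX and scaling to the 75th percentile, and the table's probes are centred.

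Background-corrected intensities of non-control spots were scaled to the array's 75th percentile (688 to 794) and put on the log2 scale. Spots marked as outliers, 0.316% to 0.355%, were set missing, and spots of 1 probe were averaged. A probe with several spots was well above background where at least as many spots were so as not. Probes were named through RefSeq accessions (22951), symbols (6659) or synonyms (3109) in GRCm38.p6, used for names and promoters only, and 8455 kept the file's name. No spot was saturated, and the number of arrays limits the precision.

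Genes were named by a rule: the 12 largest distances per direction above background, the 6 largest bounds per direction, called members of 12 gene lists, up to 4 genes in each of the 3 top windows, and up to 6 genes with most called probes. The members and lists were chosen with earlier results of these data known. Alternatives were normexp with an offset of 50, quantile normalization, the deposited table, other filters and thresholds, each slide alone, limma 3.58.1 in R 4.3.3, genes in place of probes and leaving out each line. The code was tested on simulated data. Figures were drawn with matplotlib 3.10.9.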

Additional observations from a re-analysis of the deposited data

Results flagged for a closer look

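Of 91 called probes of named genes, 5 had 1 of the 4 mixed-background lines far from the other 3, with a gap above the 95% critical value of Dixon's test for 4 samples, which chance exceeds in about 1 in 20 groups. Sfrp4 was at -1.94 in #620-6 and between -1.39 and -1.30 in the other 3 lines. Unc45b was at -2.36 in #620-6, against -0.02 to 0.21. Ifit1 was at -6.78 in #757-1, against -5.998 to -5.952, but only 1 of the 4 lines was well above background, so the gap lies between unmeasured values and sets no line apart. The uncharacterised gene 1700001C19Rik was at -6.75 in #757-1, against -5.76 to -5.58, but neither #757-1 nor #757-2 was well above background, and the same holds. Nlrp4f was at 0.29 in #620-2, against 2.53 to 2.58, so that #620-2 lay between RF8 and the other 3 lines.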

How the results depend on the processing

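No paired analysis was possible because RF8 has 1 array and the groups share only 1 replicate number. The counts of higher and lower probes, 413 and 175, were 102 and 83 with normexp, 1426 and 670 against the mean of the 4 lines, 1228 and 782 against the lines of RF8's own slide, 917 and 439 against those of the other slide, 89 and 42 at 4-fold, 7208 and 4488 at any distance, 0 and 1 with limma and 66 and 38 with limma and the slide as a block. The higher count was 96 among probes well above background on all 5 arrays and 200 with dim values set to the array's floor, an alternative chosen after seeing the data. The lower count was 669 with no filter. Leaving out each line in turn gave 495 to 576 higher and 196 to 324 lower probes, the last without #620-2. The higher share of calls, 70.2%, was 55.1% with normexp, 38.2% with no filter, 40.5% among probes measured in all 5 lines, 45.5% with dim values at the floor and 61.1% against the own slide. With no filter the median of all differences was -0.11. The shares that follow are to be set against the counts over all probes with the same setting, not against 2.34%. With normexp, against the mean and against each slide, those counts are out of the same 25173 kept probes. The share called on chromosome 14 was 1.42% with normexp, 12.4% against the mean, 9.09% and 9.31% against the own and other slide, and 5.04% to 6.67% with a line left out (highest without #620-2). On chromosome 4 it was 0.559% with normexp, 0.686% among probes measured in all 5 lines, 5.84% against the mean, 6.89% and 3.42% against the own and other slide, and 1.80% to 2.54% with a line left out (highest without #757-2). The window at the start of chromosome 14 was at 2.78% with normexp, 50% against the mean, 47.2% against the own slide, 7.09% at a width of 20 Mb, and 19.4% to 47.2% with a line left out (highest without #757-1). The window on chromosome 12 was at 2.78% with normexp. That on chromosome 13 was at 1.96% with normexp, 21.6% against the mean and 23.5% against the other slide. List medians moved to 0.098 (normexp) and 0.22 (other slide) for early differentiation, and with the other slide to 0.25 for primitive endoderm and 0.82 for fibroblast genes. With the own slide they moved to 0.68 for interferon-responsive and 0.89 for antigen presentation genes. Of 70 named genes, 51 stayed past 2-fold with normexp and 68 with quantile normalization. Without chromosomes 8 and 11, left out after seeing the data, 343 probes were higher and 161 lower. Against the mean, against 1 slide or with a line left out, the distance cannot be smaller than against all 4 lines. Those counts could therefore only rise, as could those at any distance or with no filter. Counts could only fall at 4-fold, among probes measured in all 5 lines or without chromosomes 8 and 11. The size of these shifts and the causes of the other changes were not tested. The second slide measured fewer dim probes, 21242 to 22044 probes being well above background there against 26362 to 27135 on the first.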

Other observations

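Outside the autosomes, 911 probes of the X chromosome passed the same filter, of which 13 were higher and 9 lower in RF8 (2.41%), with a median difference of -0.21. Over 707 X probes the median of RF8 minus the single line was -0.37 for #620-2 and -0.65 for #620-6, both labelled female, and -0.02 for #757-1 and 0.04 for #757-2, both labelled male as RF8 is. Of 377 probes without a chromosome position, 7 were higher and 6 lower.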
